A study of Mus musculus with 55 samples.

Results

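Long-term haematopoietic stem cells (LT-HSCs) from Tet2 knockout mice were compared with LT-HSCs from wild-type (WT) mice by bulk RNA sequencing. The comparison took every library of one deposited count table whose label gives this cell population and either of these genotypes, which came to 7 of the 55 libraries in the series: 4 Tet2 knockout libraries (KO2, KO3, KO4 and KO5) and 3 WT libraries (WT2, WT3 and WT5). The knockout mice carried floxed Tet2 alleles (Tet2 f/f) and the Mx1-Cre transgene. Cre was induced at 4 weeks of age with 5 doses of poly(I:C), and the mice were kept for a further 16 weeks before their bone marrow was taken. All mice were on a C57BL/6 background. Mx1-Cre responds to interferon and is active in many tissues besides blood, so the deletion was not limited to stem cells. Whether the WT mice also received poly(I:C) is not given in the sources used here. LT-HSCs were sorted as Lin-cKit+Sca1+CD48-CD150+ cells, 200 cells per library according to the labels (the study's methods state a larger number), and their RNA was amplified as full-length cDNA. The study counts its replicates as mice and describes more WT replicates than were analysed here. The labels number the libraries and do not tie the numbers to mice, so the p-values measure only the spread between these libraries. In RNA from a sorted population, fewer cells expressing a gene and less of its RNA per cell cannot be told apart.

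TET2 is a dioxygenase that oxidises 5-methylcytosine in DNA, a step towards removing the methyl mark, and its gene is often mutated in clonal haematopoiesis and myeloid malignancy. LT-HSCs sit at the top of the blood hierarchy. They divide rarely, rely on a small set of transcription factors such as HLF, ERG and GATA2 to keep their identity, and already transcribe genes of several blood lineages at low levels. The question here was which stem cell, lineage, cell cycle and metabolic genes differ between the genotypes, across every expressed gene.

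Library totals ran from 50458473 to 75043763 counts in WT and from 63070981 to 88456663 counts in the knockout libraries. The correlation of log2 levels across genes was 0.937 to 0.948 between WT libraries and 0.894 to 0.920 between knockout libraries. Between knockout and WT libraries it was 0.900 to 0.933. Each knockout library had a higher median correlation with the WT libraries (0.905 to 0.930) than with the other knockout libraries (0.896 to 0.917). The gate genes matched the sort. Kit, which encodes the stem cell factor receptor cKit, stood at 234, 231 and 165 CPM (counts relative to the size of each library, which was adjusted by the trimmed mean of M values, TMM) in WT and at 443, 368, 182 and 323 CPM in the knockout libraries. Slamf1, which encodes CD150, stood at 50.4, 65.5 and 46.8 CPM in WT and at 42.8, 104, 79.9 and 39.4 CPM in the knockout. Cd48 was low in both, at 2.38 to 14.7 CPM in WT and 0.0665 to 14.2 CPM in the knockout. The groups overlapped for Kit, Slamf1 and Cd48, as they did for Ly6a, which encodes Sca1, and for Flt3. Tet2 itself (chr3:133463679-133545139, minus strand, mm10) did not set the genotypes apart. It stood at 15.5, 15.2 and 11.9 CPM in WT and at 29.6, 12.95, 17.1 and 44.3 CPM in the knockout libraries, a log2 fold change of 0.87 with a standard error (SE) of 0.461. A deletion of some exons need not lower a count over the whole gene, and which exons carried the counts was not analysed here, so the level of Tet2 does not check the labels. The groups are therefore those that the labels give.

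Of 16351 tested genes, edgeR's quasi-likelihood test called 4 higher in the knockout and none lower, at a Benjamini-Hochberg adjusted p under 0.05 and a change of at least 2-fold. Those are 0.0245% of the tested genes in the upward direction and 0% in the downward direction. All 4 are pseudogene or unclassified loci: Rps3a2, Rps3a3, Gm5586 and Gm45104. At an unadjusted p under 0.05 the test passed 843 genes, 5.16% of those tested. The spread between libraries was wide, with a common biological coefficient of variation of 0.869. DESeq2, another count model run on the same libraries, called 90 genes higher (0.559% of the 16100 it adjusted) and 55 lower (0.342%), including all 4. An edgeR fit of all 46 libraries of the table, in which every sorted population shares 1 estimate of the spread, called 6 genes higher (0.0268% of 22360) and 14 lower (0.0626%). The 6 were Rps3a2, Rps3a3, Gm5586, Gm10603, Xlr3b and Ep300, and Gm45104 missed the threshold there (adjusted p = 0.0507). In every one of the 4 knockout libraries 528 genes (3.23%) stood above all 3 WT libraries, and 607 genes (3.71%) stood below all 3. Of the genes DESeq2 called, 66 of the 90 higher and 53 of the 55 lower were separated in this way. Below, a gene is said to be separated when its 2 groups of libraries do not overlap. The counts of separated genes in the lists that follow stand beside these shares of all genes. The median log2 fold change over all tested genes was 0.06.

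**Figure D1:**
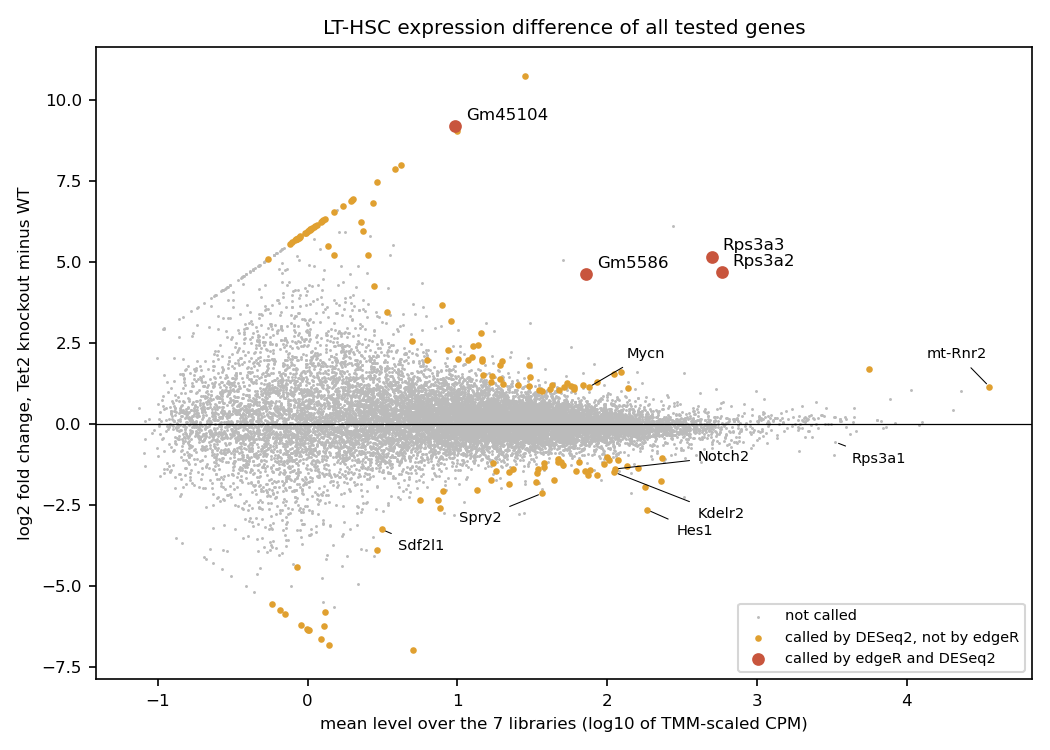
Each point is 1 of 16351 tested genes, with its mean level over the 7 LT-HSC libraries (log10 of TMM-scaled CPM) on the x axis and its log2 fold change, knockout minus WT, on the y axis. The 4 genes called by edgeR stand at log2 fold changes of 4.63 to 9.20, and the genes called by DESeq2 but not by edgeR lie on both sides of 0.

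The 3 pseudogenes that rose are processed copies of one gene, Rps3a1, which encodes a protein of the small ribosomal subunit. Rps3a2 (chr14:88123017-88123808, minus strand) stood at 41.7, 38.6 and 34.6 CPM in WT and at 870, 933, 1176 and 961 CPM in the knockout, a log2 fold change of 4.68 (SE 0.220, adjusted p = 0.000141 in edgeR). Rps3a3 (chr13:108670603-108671397, plus strand) stood at 26.5, 25.0 and 20.3 CPM in WT and at 700, 744, 988 and 999 CPM in the knockout, a log2 fold change of 5.16 (SE 0.259, adjusted p = 0.000141 in edgeR). Gm5586 (chr7:16719116-16719910, minus strand) stood at 6.01, 4.42 and 4.46 CPM in WT and at 89.9, 95.4, 151 and 158 CPM in the knockout, a log2 fold change of 4.63 (SE 0.341, adjusted p = 0.00225 in edgeR). Every knockout library lay far above every WT library for all 3. The intact parent, Rps3a1 (chr3:86137940-86142702, minus strand), lay on the other side: it stood at 4325, 3754 and 4037 CPM in WT and at 2270, 2542, 3150 and 3004 CPM in the knockout, a log2 fold change of -0.56 (SE 0.178, adjusted p = 0.743 in edgeR), and its groups were separated.

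The copies are nearly the same sequence as the coding part of the Rps3a1 transcript, which spans bases 134 to 928 of 977 bases over 6 exons in the GENCODE vM21 annotation of mm10. Rps3a2 differs from it at 4 positions (99.5% identity), Rps3a3 at 9 (98.9%) and Gm5586 at 12 (98.5%), with no gaps. The longest stretches identical to the parent are 317, 215 and 186 bases. At 2 positions all 3 copies carry the same base and the parent another. These positions, counted from base 1 of the Rps3a1 transcript, are T349C in exon 3 (chromosome 3, position 86141377) and T667C in exon 4 (position 86139069), with the parent's base first. Within the stretch that the copies share with the parent, they are the positions at which the parent differs from every copy, so 61 bases around each are shown, 5′ to 3′ on the transcript strand. Capitals in a copy mark a base that differs from Rps3a1, and capitals in Rps3a1 mark the positions at which any copy differs. The lines around position 349 (bases 319 to 379) are as follows.
Rps3a1: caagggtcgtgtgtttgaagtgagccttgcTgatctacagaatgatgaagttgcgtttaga
Rps3a2: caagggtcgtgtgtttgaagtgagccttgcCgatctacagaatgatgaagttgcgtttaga
Rps3a3: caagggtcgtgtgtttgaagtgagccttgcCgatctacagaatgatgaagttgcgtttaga
Gm5586: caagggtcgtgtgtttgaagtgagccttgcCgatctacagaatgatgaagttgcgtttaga
The lines around position 667 (bases 637 to 697) follow.
Rps3a1: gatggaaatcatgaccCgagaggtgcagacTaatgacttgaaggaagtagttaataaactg
Rps3a2: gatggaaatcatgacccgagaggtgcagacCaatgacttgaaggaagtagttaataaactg
Rps3a3: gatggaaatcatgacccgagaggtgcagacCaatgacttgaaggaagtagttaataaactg
Gm5586: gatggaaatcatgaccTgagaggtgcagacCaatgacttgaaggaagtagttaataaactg

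Summed over the parent and its 3 copies, the genotypes overlapped. The sum stood at 4400, 3822 and 4096 CPM in WT (mean 4106 ± 289, SD, n = 3) and at 3930, 4314, 5463 and 5121 CPM in the knockout (mean 4707 ± 708, SD, n = 4), with p = 0.286 in a two-sided exact permutation test, in which 0.0286 is the smallest value that 4 against 3 libraries allow. What differed was how the counts were divided. The copies held 1.45% to 1.78% of the summed counts in WT and 41.1% to 42.4% in the knockout. The same division was present in the other sorted populations of this table: the copies held 37.9% to 42.5% in all 24 knockout libraries of 6 populations and 1.44% to 4.41% in all 22 WT libraries. The near identity of the sequences leaves the counts of the individual copies uncertain, and no reads were assigned here. The part that alignment or counting had in the division was not tested. Rps3a1 and Tet2 lie on the same chromosome. Of 849 tested genes on chromosome 3, 28 were separated above WT and 34 below, and of 91 within 10 Mb of Tet2, 4 were above and 2 below.

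**Figure D2:**
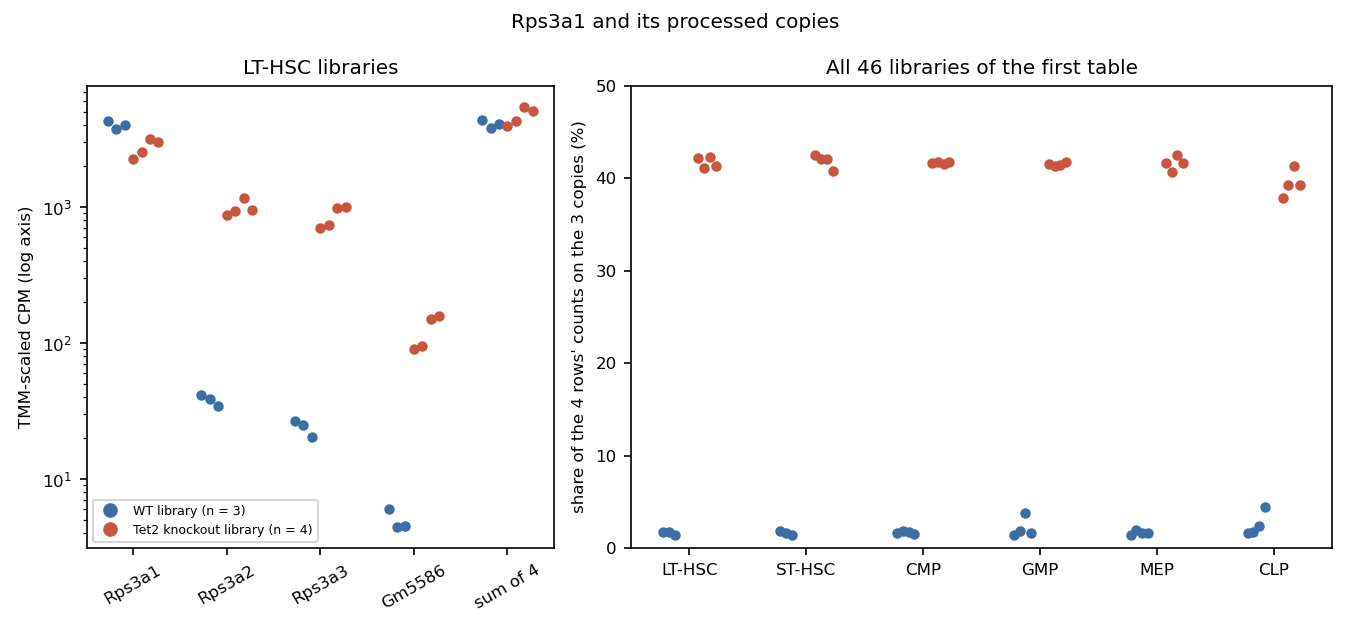
Left, TMM-scaled CPM (log axis) of Rps3a1, its 3 copies and their sum in each LT-HSC library; right, the percentage of the counts of all 4 that fell on the copies, in each of the 46 libraries of the table by sorted population. The knockout libraries lie at 37.9% to 42.5% and the WT libraries at 1.44% to 4.41%, while the sums overlap.

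The fourth locus that rose, Gm45104 (chr7:18396516-18400865, minus strand), is annotated as a transcript whose existence is still to be established by experiment. It had no counts in any WT LT-HSC library and stood at 6.88, 17.1, 20.6 and 23.3 CPM in the knockout libraries, or 623 to 1608 counts. Against a floor of 3 counts per WT library this is at least 369-fold higher, with an edgeR adjusted p of 0.0455. The call rested on nearly all libraries: it was lost when any one of WT2, WT3, WT5, KO3, KO4 or KO5 was left out (edgeR adjusted p = 0.139 to 0.260), and held without KO2 (adjusted p = 0.0418). Over all 6 populations 19 of the 22 WT libraries were at 0 and none passed 5 counts, while 2 of the 24 knockout libraries were at 0 and the others reached up to 3460 counts. The function of this locus is unknown.

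Genes of stem cell identity were looked at first. Of 20 stem cell transcription factors, all of them tested, 12 were higher and 8 lower, beside 8883 higher and 7468 lower of all tested genes, with a median log2 fold change of 0.24 (0.09 without KO5), and 4 were separated above WT and none below. edgeR called none of them. Hlf encodes a bZIP factor of stem cells. It stood at 85.4, 117 and 22.3 CPM in WT and at 237, 158, 138 and 208 CPM in the knockout (log2 fold change 1.30, SE 0.499, adjusted p = 0.848 in edgeR). Its lowest knockout library was above its highest WT library, although the WT libraries themselves ranged widely. Erg, an ETS factor needed for stem cell maintenance, stood at 26.3, 31.7 and 27.8 CPM in WT and at 46.6, 37.5, 53.8 and 44.9 CPM in the knockout (0.67, SE 0.246). Gata2, a zinc finger factor of stem cells and mast cells, stood at 10.6, 7.48 and 5.96 CPM in WT and at 25.6, 10.6, 84.3 and 13.3 CPM in the knockout (2.06, SE 0.750), and 1 library, KO4, held most of that difference. Hoxb4, a homeobox factor, was also separated but low, at 0.208 to 0.495 CPM in WT and 0.631 to 1.33 CPM in the knockout. Meis1, the cofactor of HOX proteins, overlapped, at 143 to 284 CPM in WT and 79.3 to 276 CPM in the knockout.

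Among 23 surface and niche genes, 17 were higher and 6 lower, with a median of 0.23 (0.09 without WT2 and 0.40 without WT3). Angpt1, which encodes the ligand of the TIE2 receptor, stood at 658, 803 and 686 CPM in WT and at 887, 992, 866 and 848 CPM in the knockout (log2 fold change 0.33, SE 0.165). Itga4, the integrin chain that binds VCAM1 in the niche, stood at 93.2, 106 and 87.9 CPM in WT and at 138, 112, 123 and 159 CPM in the knockout (0.47, SE 0.201). Cd44, the hyaluronan receptor, lay below WT in every knockout library, at 147, 146 and 190 CPM against 4.84, 91.2, 141 and 111 CPM, and KO2 was far below the other 3. All 3 were separated, and none passed the test with edgeR or DESeq2.

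Among the quiescence genes a few stood apart. Of 20, 8 were higher and 12 lower, with a median of -0.19 (0.03 without KO4), and 3 were separated below WT and none above. Foxo3, the forkhead factor that guards stem cell quiescence, stood at 132, 146 and 143 CPM in WT and at 63.9, 82.8, 59.1 and 71.8 CPM in the knockout, a log2 fold change of -1.02 (SE 0.194, adjusted p = 0.445 in edgeR and 0.00177 in DESeq2). Both groups were tight and far apart. The antiproliferative genes Btg2 and Tob1 were the other separated members. Btg2 stood at 267, 449 and 329 CPM in WT and at 158, 247, 140 and 113 CPM in the knockout (-1.08, SE 0.301), and Tob1 at 29.1, 20.7 and 31.2 CPM against 13.6, 13.02, 13.99 and 18.8 CPM (-0.86, SE 0.310). Neither was called by edgeR or DESeq2. Egr1 and Txnip, further genes of this list, overlapped and had log2 fold changes of 0.56 and 0.96. Of 23 tested genes known to mark aged stem cells, 14 were higher and 9 lower, with a median of 0.14 (0.03 without WT2 or without KO4), and none was separated.

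**Figure D3:**
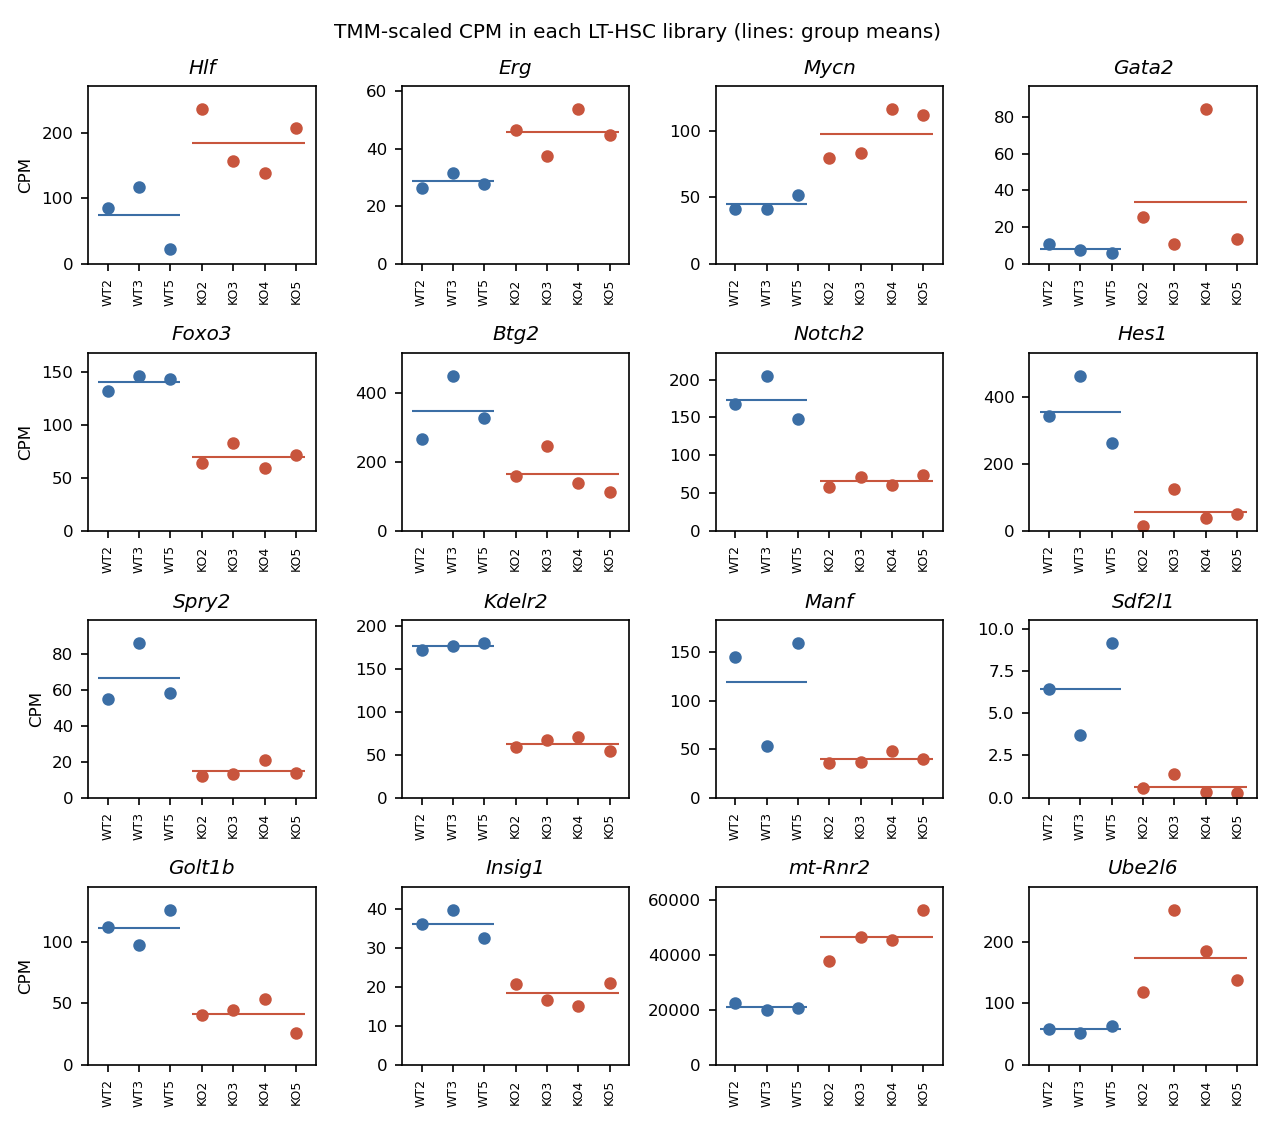
TMM-scaled CPM of 16 genes in each LT-HSC library, with WT in blue, knockout in red and a line at each group mean; every axis starts at 0. In each panel the lowest library of one genotype lies above the highest of the other, although Hlf and Manf vary widely among the WT libraries and Gata2 among the knockout libraries.

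Lineage priming genes gave no separated member in 3 of 4 programs. Of 18 tested myeloid genes, 13 were higher and 5 lower, with a median of 0.23 (0.46 without WT2). Of 19 lymphoid genes, 14 were higher and 5 lower, with a median of 0.46 (0.30 without WT5), and of 16 erythroid genes, 7 were higher and 9 lower, with a median of -0.15 (0.00 without WT5 and -0.47 without KO2). None of these was separated or called. Mef2c, a factor of lymphoid priming, stood at 65.2, 56.1 and 62.6 CPM in WT and at 108, 81.5, 56.0 and 146 CPM in the knockout, and Plac8, of the myeloid list, stood at 124, 66.0 and 126 CPM against 87.0, 212, 104 and 90.2 CPM. Both overlapped.

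The megakaryocyte program was the exception. Of its 19 tested genes 11 were higher and 8 lower, with a median of 0.10 (-0.05 without KO2), and 3 were separated below WT. Pf4, which encodes platelet factor 4, stood at 388, 353 and 369 CPM in WT and at 71.3, 198, 332 and 156 CPM in the knockout, a log2 fold change of -0.97 (SE 0.426, adjusted p = 0.967 in edgeR). F2r, the thrombin receptor PAR1, stood at 147, 169 and 120 CPM in WT and at 71.4, 109, 45.8 and 58.4 CPM in the knockout (-1.03, SE 0.305). Rab27b, a small GTPase of platelet granule release, stood at 72.1, 56.6 and 62.0 CPM against 38.4, 32.8, 31.2 and 54.1 CPM (-0.70, SE 0.266). The WT libraries were tight for Pf4 while the knockout libraries spread from 71.3 to 332 CPM.

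In the cell cycle, most DNA replication genes stood lower by value. Of 40, 7 were higher and 33 lower, with a median log2 fold change of -0.34 (-0.20 without WT5). None was called, and 1 was separated: Ung, which encodes uracil DNA glycosylase, at 9.32, 4.79 and 9.82 CPM in WT and 1.75, 3.29, 1.96 and 0.795 CPM in the knockout (-2.02, SE 0.673, adjusted p = 0.743 in edgeR). Pcna, the replication clamp, overlapped, at 530, 475 and 604 CPM in WT and 293, 447, 611 and 334 CPM in the knockout. The mean log2 level of the list was 5.78 ± 0.300 (SD, n = 3) in WT and 5.35 ± 0.301 (SD, n = 4) in the knockout, and the libraries overlapped because KO4 lay among the WT libraries.

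Mitosis genes varied between libraries of one genotype. Of 40, 16 were higher and 24 lower, with a median of -0.19 that turned to 0.20 without WT5 and to 0.02 without KO2. Their mean log2 level ran from 4.21 in WT3 to 5.88 in WT5, and the knockout libraries, from 4.51 to 5.55, lay between these. Separated members were Tacc3, a spindle protein, at 39.2, 31.96 and 56.2 CPM in WT and 30.5, 26.5, 30.1 and 24.6 CPM in the knockout, and Ttk, a spindle checkpoint kinase, at 14.6, 13.7 and 16.4 CPM against 6.004, 11.9, 8.86 and 8.14 CPM. Among 24 tested G1 cyclin, CDK and related genes, 7 were higher and 17 lower. Their median of -0.08 ranged from -0.18 (without KO2) to -0.04 on leaving out 1 library. Mycn, which encodes the MYC family factor N-Myc, stood above WT in every knockout library. It was at 41.2, 41.5 and 51.8 CPM in WT and at 79.8, 83.3, 117 and 112 CPM in the knockout, a log2 fold change of 1.13 (SE 0.237, adjusted p = 0.445 in edgeR and 0.00380 in DESeq2). Ccne2, which encodes the cyclin of the G1 to S transition, was separated below WT, at 34.7, 25.7 and 50.6 CPM against 22.3, 17.4, 20.7 and 25.4 CPM (-0.78, SE 0.316).

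Single genes of the Notch and receptor tyrosine kinase pathways lay below WT in every knockout library. The lists for the Notch pathway, ERK feedback and the endoplasmic reticulum were written after the values of their members had been seen, so their counts describe these libraries and support nothing further. Notch2, a receptor of the Notch pathway (chr3:98013527-98150361, plus strand), stood at 167, 204 and 148 CPM in WT and at 57.9, 70.9, 60.6 and 73.6 CPM in the knockout, a log2 fold change of -1.40 (SE 0.201, adjusted p = 0.152 in edgeR, 0.0231 in the edgeR fit of all 46 libraries and 1.32e-06 in DESeq2). Hes1, the transcriptional repressor induced by Notch receptors (chr16:30064384-30067796, plus strand), stood at 341, 461 and 262 CPM in WT and at 14.2, 125, 37.0 and 48.9 CPM in the knockout, a log2 fold change of -2.65 (SE 0.622, adjusted p = 0.445 in edgeR and 0.000503 in DESeq2). The ligand gene Jag1 and the target Hey1 were separated in the same direction at low levels, Jag1 at 1.54 to 5.02 CPM in WT and 0 to 1.19 CPM in the knockout, and Hey1 at 6.06 to 13.2 CPM and 0.128 to 5.76 CPM. Those were the 4 separated members of 24 tested, of which 12 were higher and 12 lower, with a median of -0.03 that ranged from -0.25 (without KO3) to 0.03 (without WT5). Adam10, the protease that cleaves Notch receptors, overlapped, at 190, 237 and 257 CPM in WT and 61.7, 208, 27.9 and 21.3 CPM in the knockout.

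Spry2, a feedback inhibitor of receptor tyrosine kinase signalling (chr14:105891947-105896819, minus strand), stood at 54.7, 85.8 and 58.0 CPM in WT and at 12.2, 12.9, 21.0 and 13.7 CPM in the knockout, a log2 fold change of -2.14 (SE 0.308, adjusted p = 0.152 in edgeR, 0.0244 in the edgeR fit of all 46 libraries and 3.12e-07 in DESeq2). Rasgef1b, an exchange factor for RAS family GTPases, stood at 156, 174 and 82.3 CPM in WT and at 56.6, 38.4, 34.4 and 52.8 CPM in the knockout (-1.59, SE 0.311, adjusted p = 0.445 in edgeR and 0.000940 in DESeq2). Plaur, the urokinase receptor, stood at 172, 236 and 156 CPM against 95.8, 97.4, 57.7 and 21.6 CPM (-1.46, SE 0.462). These were the 3 separated members of 13 tested ERK feedback genes, of which 4 were higher and 9 lower (median -0.39, or -0.16 without KO3). Dusp6, the ERK phosphatase, overlapped, at 96.9 to 154 CPM in WT and 48.2 to 129 CPM in the knockout.

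Immediate early genes lay on both sides of 0. Of 30, 14 were higher and 16 lower, with a median of -0.10 that turned to 0.05 without WT5, 0.04 without KO3 and 0.08 without KO4, and 5 were separated below WT and 1 above. Fosl2, an AP-1 subunit, stood at 222, 314 and 206 CPM in WT and at 107, 57.5, 99.8 and 119 CPM in the knockout (-1.37, SE 0.283, adjusted p = 0.445 in edgeR and 0.00205 in DESeq2). Atf3, a stress-induced bZIP factor, stood at 22.3, 22.4 and 39.0 CPM in WT and at 12.7, 8.33, 4.72 and 7.61 CPM in the knockout (-1.74, SE 0.425, DESeq2 adjusted p = 0.0247). Jun, another AP-1 subunit, lay above WT in every knockout library, at 98.9, 99.9 and 113 CPM against 138, 118, 114 and 185 CPM (0.42, SE 0.225). So 1 AP-1 subunit was separated upward and another downward, and Fos overlapped, at 456 to 1064 CPM in WT and 851 to 1219 CPM in the knockout. Egr3 and Socs3, an inhibitor of cytokine receptor signalling, were separated below WT with log2 fold changes of -1.29 and -0.87.

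For targets of p53, 13 of 28 tested genes were higher and 15 lower (median -0.18, from -0.35 without WT3 to -0.01 without WT5), and 4 were separated below WT and 1 above. Tnfrsf10b, a TRAIL death receptor, stood at 11.5, 12.4 and 7.40 CPM in WT and at 2.05, 2.23, 1.43 and 2.44 CPM in the knockout, a log2 fold change of -2.34 (SE 0.508, adjusted p = 0.445 in edgeR and 0.00443 in DESeq2). Plk3, a stress-induced kinase, stood at 16.2, 18.1 and 13.8 CPM against 9.51, 5.99, 5.32 and 5.92 CPM (-1.26, SE 0.384), and Sesn1, a sestrin of the oxidative stress response, at 76.8, 65.8 and 58.8 CPM against 54.8, 33.7, 29.5 and 58.3 CPM (-0.61, SE 0.301). Btg2, given above, is also on this list. Ccng1, which encodes cyclin G1, was the member above WT, at 76.7, 77.3 and 52.3 CPM against 98.4, 110, 89.7 and 79.8 CPM (0.46, SE 0.229). Cdkn1a, the CDK inhibitor p21, overlapped, at 360, 202 and 251 CPM in WT and 212, 143, 152 and 42.8 CPM in the knockout.

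Among the protein-coding genes of the lists, the lowest edgeR adjusted p was in protein folding and retrieval in the endoplasmic reticulum. Members of this list were chosen after their values had been seen, so its rank is no result. Kdelr2, the receptor that returns chaperones to the endoplasmic reticulum (chr5:143403838-143421901, plus strand), stood at 172, 177 and 180 CPM in WT and at 58.4, 66.7, 71.0 and 54.0 CPM in the knockout, a log2 fold change of -1.49 (SE 0.184, adjusted p = 0.0844 in edgeR, 1.69e-07 in the edgeR fit of all 46 libraries and 4.95e-10 in DESeq2). Golt1b, a Golgi transport protein, stood at 112, 97.3 and 126 CPM in WT and at 40.2, 44.2, 53.6 and 25.4 CPM in the knockout (-1.45, SE 0.276, adjusted p = 0.445 in edgeR, 0.0121 in the fit of all 46 libraries and 0.000990 in DESeq2). Both sets of libraries were far apart. Manf, a secreted factor retained in the endoplasmic reticulum, stood at 145, 53.5 and 159 CPM against 35.6, 36.4, 48.4 and 39.5 CPM (-1.58, SE 0.360, DESeq2 adjusted p = 0.00688), and Hspa5, which encodes the chaperone BiP, at 550, 569 and 643 CPM against 452, 369, 342 and 197 CPM (-0.79, SE 0.269). Sdf2l1 and Dnajb11, cofactors of BiP, and Ssr1, a subunit of the translocon-associated complex, were also separated below WT, with log2 fold changes of -3.26, -1.12 and -0.60. The edgeR fit of all 46 libraries called Sdf2l1 (adjusted p = 0.0189, against 0.554 in edgeR on the 7 libraries). Of 31 tested members 14 were higher and 17 lower (median -0.14, or -0.23 without KO5), and 7 were separated below and 1 above. The member above was Dnajc3, another BiP cofactor, at 49.2, 47.9 and 57.5 CPM in WT and 86.1, 60.6, 61.4 and 58.1 CPM in the knockout. Canx and Hsp90b1, abundant chaperones of the same compartment, had log2 fold changes of -0.23 and -0.27 with overlapping libraries.

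Cytosolic ribosomal protein genes were slightly higher by value: 69 of 88 tested were higher and 19 lower, with a median of 0.16 (0.06 without KO4 and 0.26 without KO2). The 2 members that edgeR called are the copies Rps3a2 and Rps3a3. DESeq2 also called Rpl34, whose libraries overlapped, at 537, 78.6 and 531 CPM in WT and 84.3, 87.2, 150 and 129 CPM in the knockout (log2 fold change -1.76, SE 0.564, adjusted p = 0.743 in edgeR and 0.0480 in DESeq2). Apart from these, Rpl38 was separated above WT, at 711, 609 and 557 CPM against 923, 784, 1643 and 1657 CPM (log2 fold change 1.0003, SE 0.305), as was Rpsa, at 1966, 2047 and 2099 CPM against 2359, 2376, 2940 and 2194 CPM (0.28, SE 0.169). Many ribosomal protein genes have processed copies, so their counts carry the same uncertainty. Proteasome genes leaned lower, with 10 of 38 tested higher and 28 lower (median -0.15, from -0.28 without KO4 to -0.06 without KO2). The 5 separated below WT were Psmc3, Psmc4, Psmd7, Psmd8 and Psmd12, all of the regulatory particle, with log2 fold changes of -0.23 to -0.66. Psmc4, an ATPase subunit, stood at 210, 163 and 241 CPM in WT and 146, 154, 134 and 83.4 CPM in the knockout. Autophagy and lysosome genes counted 9 of 28 higher and 19 lower, and the 1 separated member was Pik3c3, the lipid kinase VPS34, at 20.4, 15.7 and 19.9 CPM in WT and 28.8, 26.1, 32.2 and 31.2 CPM in the knockout.

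In central carbon metabolism 1 of 25 glycolysis genes, 4 of 25 genes of the tricarboxylic acid cycle and none of 26 fatty acid oxidation genes were separated, beside the 3.23% above and 3.71% below WT over all genes, and they are given as values. Of 25 glycolysis genes 8 were higher and 17 lower. Their median of -0.08 ranged from -0.25 (without KO3) to -0.006 on leaving out 1 library. Hk2, the inducible hexokinase, was the 1 separated member, at 127, 152 and 91.8 CPM in WT and 70.1, 56.5, 65.0 and 56.5 CPM in the knockout (log2 fold change -0.997, SE 0.227, adjusted p = 0.445 in edgeR). Ldha, lactate dehydrogenase A, overlapped, at 982 to 1067 CPM in WT and 478 to 1167 CPM in the knockout. In the tricarboxylic acid cycle 5 of 25 genes were higher and 20 lower (median -0.19, or -0.06 without KO5). Sdhd, an anchor subunit of succinate dehydrogenase, stood at 173, 170 and 159 CPM in WT and 128, 103, 121 and 91.8 CPM in the knockout (-0.59, SE 0.189), and Dld and Mdh2, dehydrogenases of the cycle, were separated below WT with log2 fold changes of -0.39 and -0.55. Dlst, the E2 subunit of the 2-oxoglutarate dehydrogenase complex, lay on the other side, at 2.95, 2.79 and 5.49 CPM in WT and 13.8, 16.6, 11.3 and 17.9 CPM in the knockout (1.99, SE 0.451, adjusted p = 0.445 in edgeR and 0.00659 in DESeq2). Thus Dlst and Dld, partners in that complex, were separated in opposite directions. Fatty acid oxidation genes split evenly, 13 higher and 13 lower of 26, with none separated.

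Cholesterol synthesis genes counted 9 of 25 higher and 16 lower, with a median of -0.19 that ranged from -0.52 (without KO3) to -0.10 (without KO5). Separated members lay below WT, and those described here belong to the control of lipid synthesis. Insig1, which retains the sterol sensor in the endoplasmic reticulum, stood at 36.1, 39.7 and 32.7 CPM in WT and at 20.7, 16.7, 15.005 and 21.0 CPM in the knockout (log2 fold change -0.98, SE 0.272). Srebf1, a lipogenic transcription factor, stood at 15.2, 11.2 and 9.49 CPM against 8.95, 6.13, 3.99 and 5.73 CPM (-0.95, SE 0.441). The downstream enzyme genes Idi1 and Msmo1 overlapped, with log2 fold changes of -0.19 and -0.55.

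Serine, one-carbon and amino acid genes counted 9 of 29 higher and 20 lower (median -0.38, or -0.22 without WT2), with 4 separated below WT and none above. They were Asns, asparagine synthetase, at 84.8, 76.3 and 64.8 CPM in WT and 36.6, 54.6, 60.8 and 30.4 CPM in the knockout (-0.72, SE 0.291), Slc1a5, a glutamine transporter (-0.79, SE 0.296), Mthfd1l, an enzyme of mitochondrial formate production (-0.93, SE 0.367), and Got1, the cytosolic aspartate aminotransferase (-0.82, SE 0.624). Got1 was at 24.5, 22.9, 12.4 and 2.75 CPM in the knockout, so that KO2 was close to the WT libraries at 25.4, 30.8 and 26.5 CPM. Atf4 and Phgdh, the regulator and the entry enzyme of serine synthesis, overlapped, with log2 fold changes of 0.06 and -0.06. Of 29 antioxidant and glutathione genes 15 were higher and 14 lower, with a median of 0.01 (-0.16 without KO4). The separated member was Sod1, the cytosolic superoxide dismutase, at 764, 880 and 795 CPM in WT and 557, 595, 531 and 412 CPM in the knockout (-0.63, SE 0.184).

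The mitochondrial transcripts are given by class, and the difference between the classes was not tested. The ribosomal RNAs encoded in the mitochondrial genome, a list of 2 genes written after their values had been seen, were both separated above WT. mt-Rnr2, the large subunit rRNA, stood at 22574, 19902 and 20780 CPM in WT and at 37681, 46453, 45486 and 56391 CPM in the knockout, a log2 fold change of 1.14 (SE 0.190, adjusted p = 0.334 in edgeR and 6.75e-06 in DESeq2). mt-Rnr1, the small subunit rRNA, stood at 2512, 2146 and 2730 CPM in WT and at 3768, 5787, 8804 and 13451 CPM in the knockout (1.69, SE 0.407, adjusted p = 0.445 in edgeR and 0.00160 in DESeq2). The 13 protein genes of the same genome overlapped throughout: 10 were higher and 3 lower, with a median of 0.20 (-0.08 without KO4), and their summed level was 51826 to 70714 CPM in WT and 44606 to 101510 CPM in the knockout. The share of all counts on mitochondrial genes was 8.02% to 9.50% in WT and 8.82% to 14.5% in the knockout libraries, and its part in the rRNA difference was not tested. Nuclear genes of oxidative phosphorylation, 34 of 84 higher and 50 lower, had a median of -0.06 that ranged from -0.24 (without KO4) to 0.05 (without KO2). Mitochondrial ribosomal protein genes, 31 of 78 higher and 47 lower, had a median of -0.08. It ranged from -0.27 (without KO4) to -0.02 on leaving out 1 library.

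Genes of DNA methylation and demethylation, including the TET and DNMT enzymes, counted 11 of 14 tested higher and 3 lower, with a median of 0.17 (0.07 without KO2 and 0.32 without KO3), and none was separated. Dnmt1, the maintenance methyltransferase, had a log2 fold change of 0.29 (SE 0.295).

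**Figure D4:**
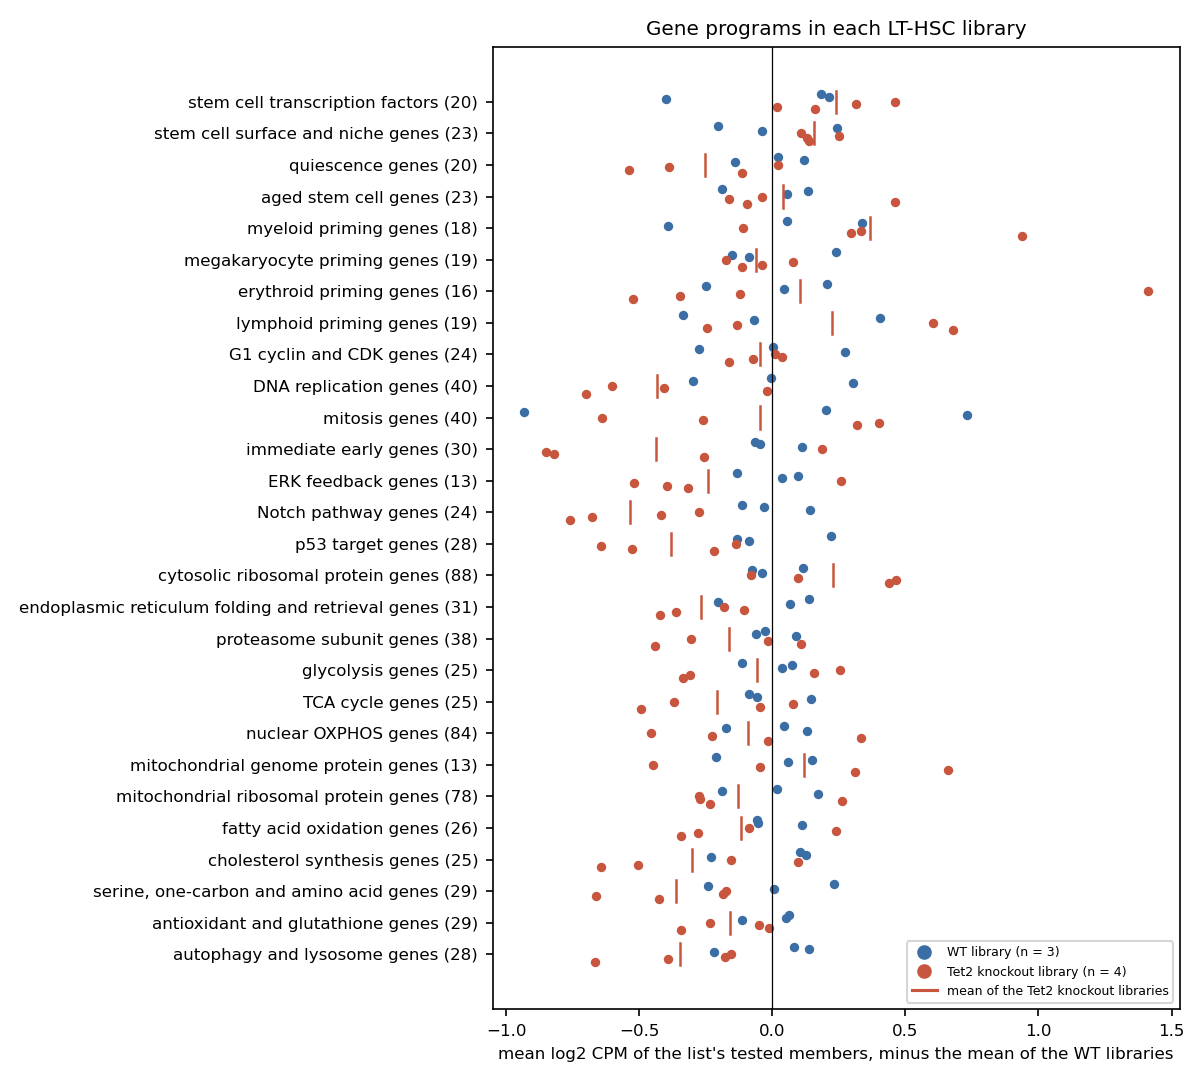
The mean log2 CPM of each list's tested members (their number in brackets) in each LT-HSC library, minus the mean of the 3 WT libraries; blue points are WT libraries, red points knockout libraries and red ticks the knockout mean. Of the lists drawn, the knockout libraries lie entirely below the WT libraries for the Notch pathway and, by a narrow gap (3.496 in KO2 and 3.499 in WT3), for p53 targets, and overlap them for the others.

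Outside the lists, genes were taken by size. Of genes at a mean of at least 50 CPM, 170 had an unadjusted p under 0.05 and separated libraries, 59 above WT and 111 below, and the 12 of highest and 12 of lowest log2 fold change among them were examined. Their separation was part of the choice and is no result. Those not named so far were, on the high side, Ube2l6, the E2 enzyme that conjugates the ubiquitin-like ISG15, at 57.8, 51.1 and 63.2 CPM in WT and 118, 251, 185 and 138 CPM in the knockout (log2 fold change 1.59, SE 0.293, adjusted p = 0.445 in edgeR and 8.46e-05 in DESeq2), the interferon-inducible GTPase gene Iigp1 (1.54), the zinc finger gene Zfp945 (1.30), the cytoskeletal linker gene Dst (1.25), Tasor, of the HUSH complex that silences transposons (1.20), and Pqlc3 (1.15). On the low side they were Klf13, a zinc finger factor, at 277, 439 and 207 CPM in WT and 132, 101.9, 55.1 and 32.4 CPM in the knockout (-1.94, SE 0.473, adjusted p = 0.452 in edgeR, 0.000337 in the fit of all 46 libraries and 0.00362 in DESeq2), Id1, an inhibitor of bHLH factors, at 89.0, 103 and 260 CPM against 38.9, 40.7, 85.1 and 14.7 CPM (-1.75, SE 0.578), Twf1, an actin-binding protein (-1.30, SE 0.277, adjusted p = 0.445 in edgeR, 0.0328 in the fit of all 46 libraries and 0.00402 in DESeq2), and Gm12940, a locus of unknown function (-1.47, SE 0.306, DESeq2 adjusted p = 0.00390).

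The same genotypes were sequenced in short-term HSCs (ST-HSCs), again with 4 knockout and 3 WT libraries, so each LT-HSC value could be set beside one from separate libraries. The libraries of both populations carry the same numbers, and the labels do not say whether these are the same mice. All 12 of the lowest genes had a log2 fold change below 0 in ST-HSCs as well. Kdelr2 was at -1.49 in LT-HSCs and -1.40 in ST-HSCs, Notch2 at -1.40 and -1.34, Hes1 at -2.65 and -2.04, and Klf13 at -1.94 and -1.91. Of the 12 highest, 9 were above 0 in ST-HSCs, or 6 of 9 without the Rps3a1 copies. The share of all genes with the same sign in both populations is not given here, so these counts stand without a background. mt-Rnr1 was at 1.69 and 1.72 and mt-Rnr2 at 1.14 and 1.28. The 3 with the other sign in ST-HSCs were Ube2l6 (1.59 and -0.16), Hlf (1.30 and -0.59) and Pqlc3 (1.15 and -0.03). With TMM scaling over all 46 libraries, Hlf averaged 69.8 CPM in WT LT-HSCs and 186 CPM in WT ST-HSCs. In the knockout it averaged 171 CPM in LT-HSCs and 121 CPM in ST-HSCs. Beyond these 24 genes, Spry2 was at -2.14 and -2.21, Foxo3 at -1.02 and -1.12, and Mycn at 1.13 and 0.95, whereas Sdf2l1 was at -3.26 and -0.10, Pf4 at -0.97 and 0.20, and Dlst at 1.99 and 0.32.

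The difference between the LT-HSC and ST-HSC effects was tested directly for 18385 genes. edgeR called none (0%), with 773 genes at an unadjusted p under 0.05, and DESeq2 called 426. No knockout effect was therefore shown by edgeR to differ between the populations, Hlf and Ube2l6 included (differences of 1.89 and 1.75 on the log2 scale, edgeR adjusted p = 0.9999 for both). Among genes at 50 CPM or more, the 5 of lowest p were Srp14, Hibch, Med13, Mllt10 and Cnot7. Mllt10, a cofactor of the DOT1L histone methyltransferase, stood at 38.6, 31.6 and 39.0 CPM in WT LT-HSCs and 55.2, 68.8, 75.2 and 109 CPM in knockout LT-HSCs, with log2 fold changes of 1.08 in LT-HSCs and -0.33 in ST-HSCs.

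**Figure D5:**
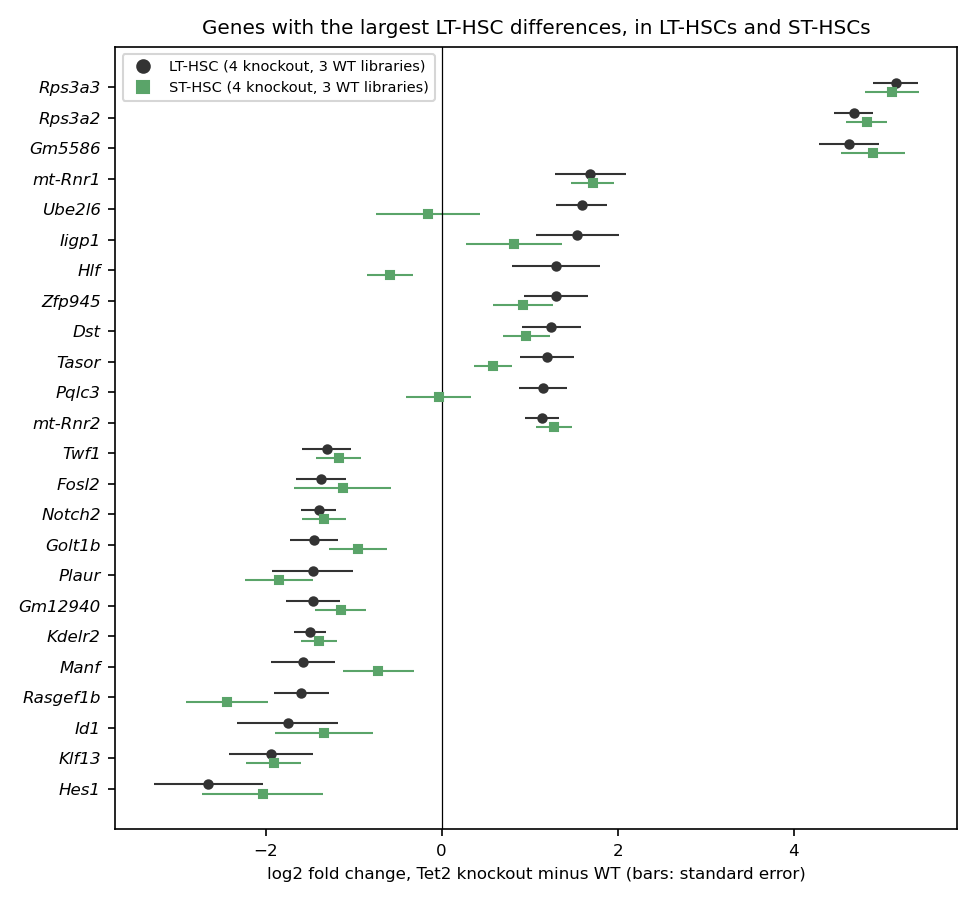
Log2 fold change, knockout minus WT, of the 24 genes chosen by size in LT-HSCs (black) and the same genes in ST-HSCs (green), with bars of 1 standard error. The 12 lowest genes lie below 0 in both populations, and Ube2l6, Hlf and Pqlc3 change sign.

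Markers of other cells were summed for each list in each LT-HSC library. Late neutrophil markers summed to 5.23 to 11.5 CPM in WT and 4.57 to 8.49 CPM in the knockout, and 5 of 14 were at 0 in every library. Macrophage and dendritic cell markers summed to 2.09 to 17.7 CPM and 1.75 to 11.9 CPM, with 4 of 15 at 0 in every library. B cell markers summed to 56.8 to 74.6 CPM and 59.1 to 109 CPM, T and NK cell markers to 68.6 to 149 CPM and 49.4 to 173 CPM, erythroblast markers to 142 to 219 CPM and 117 to 164 CPM, mast cell and basophil markers to 16.6 to 24.3 CPM and 23.6 to 95.3 CPM, and endothelial and stromal markers to 71.0 to 81.6 CPM and 74.0 to 130 CPM. The ranges of the genotypes overlapped for each list. Il7r and Dntt, which mark lymphoid progenitors, stayed under 1 CPM in every LT-HSC library, with TMM scaling over all 46 libraries. On that scale Mpo, the granulocyte enzyme, stayed at 3.19 to 8.17 CPM against 18309 CPM or more in granulocyte-monocyte progenitors.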

How the data were processed

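The genes, lists and comparisons described here were chosen with earlier results of these data known. RNA of sorted bone marrow populations was amplified by a SMART-Seq2 protocol, sequenced and aligned by the authors to mm10. The submitters' processing notes name Trim Galore 0.6.7, HISAT2 7.5.0, DESeq2 and the builds mm10 and mm9, the study's methods give other versions of Trim Galore and HISAT2, and the counting program and annotation are not given in the sources used here. The deposited values are whole-number read counts per gene, with no normalization, in 46 libraries of 12 groups in the first table, and in 9 libraries of Sting genotypes in a second table, tested separately. Every column was matched to a sample by its name. Of 55421 identifiers, 55154 matched GENCODE vM21, which gave coordinates and sequences.

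The 7 LT-HSC libraries were fitted with edgeR 4.0.16 (limma 3.58.1, R 4.3.3): low genes were removed with filterByExpr, libraries were scaled by TMM, and the quasi-likelihood test was run with Benjamini-Hochberg adjustment over all 16351 genes. A call needed an adjusted p under 0.05 and a 2-fold change. CPM are TMM-scaled, fold changes use a prior count of 2, and a group without counts was set to a floor of 3 counts per library, which covers counting error only. The test of LT-HSC against ST-HSC effects was the interaction in a fit of 14 libraries. Single values were compared by two-sided exact permutation over all 35 splits. The scripts were tested on simulated data.

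Named genes were every called gene, Tet2 and the gate genes; in each list, members whose libraries did not overlap and the 3 of highest level; the 12 highest and 12 lowest genes with a mean of at least 50 CPM, an unadjusted p under 0.05 and libraries that did not overlap; the 5 genes of lowest interaction p; and the parent and copies of a called gene. Alternatives were DESeq2 1.42.0, RLE scaling, dropping the filter, one fit of all 46 libraries, the replicate number as a block, an unadjusted threshold and leaving out each library. A few items are not reported here.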

Additional observations from a re-analysis of the deposited data

Results flagged for a closer look

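In the knockout group of 4 libraries, 1 library lay far from the other 3 for 10 of the 230 genes and list levels examined (4.35%). Chance alone sets apart about 1 in 20 such groups. Each value is the gap to the nearest other library divided by the range of the group, with a critical value of 0.829. KO2 was apart for Cd44 (0.865), at 4.84 CPM against 91.2 to 141 CPM in the other 3, for Cavin2 (0.851), at 128 CPM against 69.2 to 75.9 CPM, and for Dnajc3 (0.862), at 86.1 CPM against 58.1 to 61.4 CPM. KO3 was apart for Hemgn (0.879), at 94.1 CPM against 54.5 to 58.3 CPM, and for S100a9 (1), at 0.257 CPM against 0 in the others. KO4 was apart for Mt1 (0.984), at 315 CPM against 60.7 to 62.3 CPM, and for the mean log2 level of mitochondrial ribosomal protein genes (0.923), at 6.29 against 5.75 to 5.79. KO5 was apart for Mllt3 (0.847), at 271 CPM against 183 to 194 CPM, for Cpa3 (0.914), at 2.89 CPM against 9.81 to 10.9 CPM, and for Mrpl11 (0.881), at 42.3 CPM against 54.7 to 56.6 CPM.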

How the results depend on the processing

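The 4 called genes kept their direction under every alternative. The 189 named genes include these 4. Of the 189, 40 changed sign under at least one alternative, as did 14 of 38 list medians. Leaving out 1 library changed the sign of 39 named genes and 13 list medians. Of the 4 called genes, RLE scaling kept 4, no low-count filter kept 3 and the fit of all 46 libraries kept 3, while leaving out each library kept 3 to 4. DESeq2 called 90 genes higher and 55 lower, and an unadjusted p under 0.05 with 2-fold gave 371 and 176. The fit of all 46 libraries called 6 higher and 14 lower, among the lower Kdelr2, Klf13, Golt1b, Sdf2l1, Notch2, Spry2 and Twf1. For the difference between LT-HSC and ST-HSC effects, DESeq2 called 426 genes, the fit of all 46 libraries 1, the unadjusted threshold 730, and leaving out each library 0 to 1. Leaving out each library gave 833 to 1129 genes separated above WT and 890 to 1317 separated below, since fewer libraries then need to be apart. Leaving out each library also moved list medians: stem cell surface and niche genes from 0.091 to 0.40, quiescence genes from -0.33 to 0.029, cholesterol synthesis genes from -0.52 to -0.10, antioxidant genes from -0.16 to 0.072, late neutrophil markers from -2.01 to -0.57 and Notch genes from -0.25 to 0.035. The cause of these movements was not tested. The 4 lists for the endoplasmic reticulum, Notch, ERK feedback and mitochondrial rRNA were added after seeing the data. The libraries were amplified from few cells, so the number of molecules behind the counts is unknown.

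The replicate numbers shared by the genotypes were not used as pairs. Deviations of same-numbered libraries correlated at 0.03, 0.04 and -0.002, and those of differently numbered libraries at -0.03 to 0.05. Values this small cannot decide whether the numbers pair the libraries. With the replicate number as a block, 2 genes were called higher, Rps3a2 and Rps3a3 (edgeR adjusted p = 0.0319 and 0.0412), and the median of the antioxidant list was -0.20. Between LT-HSCs and ST-HSCs of one genotype, the same numbers correlated at 0.01 to 0.12 and different numbers at -0.10 to 0.04. Whether the same number means the same mouse was not tested. A block on these numbers left 0 calls.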

Other observations

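Among the 16351 tested genes, 23 beside Gm45104 had no counts in WT and more than 3 counts in every knockout library. Another 18 had no counts in the knockout and more than 3 counts in every WT library. Against a floor of 3 counts per library, Xlr3b, an X-linked gene of the Xlr family, was at least 1079-fold higher in the knockout, at 60.4, 103, 25.7 and 9.50 CPM. Gpm6b, which encodes a membrane glycoprotein, was at least 161-fold higher, at 8.48, 4.93, 9.07 and 7.04 CPM, and Acss3, a mitochondrial acyl-CoA synthetase, at least 146-fold higher, at 3.05, 11.8, 5.30 and 6.64 CPM. In the 7 libraries edgeR called none of the 3 (adjusted p of 0.152, 0.0884 and 0.152), whereas DESeq2 called all 3 (adjusted p of 3.33e-21, 8.12e-13 and 4.65e-11) and the edgeR fit of all 46 libraries called Xlr3b (adjusted p = 0.0368). The highest of the genes found in WT alone, 2410003L11Rik and Nudt17, stood at 0.647 to 6.97 CPM and 1.43 to 4.25 CPM.

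The second table holds LT-HSC libraries of WT, Sting knockout and Tet2 and Sting double knockout mice, 3 of each, in which Tet2 loss can be read on a background without Sting. These libraries detected fewer genes, 9382 to 11528 of 35976 listed, against 17768 to 18631 of 55421 in the 7 LT-HSC libraries above. The part that this had in the comparisons below was not tested. Of the 24 genes chosen by size, 17 were found there. The double knockout lay on the same side of the Sting knockout as the Tet2 knockout of WT for 3 of 6 of the highest genes and 7 of 11 of the lowest. Against the WT libraries of that table the counts were 4 of 6 and 4 of 11. Notch2, Rasgef1b, Fosl2 and Twf1 lay on the other side of the Sting knockout, with log2 differences of 0.39, 0.72, 0.18 and 0.35 and overlapping libraries. Id1 stood at 136, 184 and 419 CPM in the Sting knockout and at 6.38, 38.0 and 61.6 CPM in the double knockout, and Manf at 364, 136 and 182 CPM against 42.5, 132 and 40.2 CPM. Both were separated on the same side as in the Tet2 knockout, with p = 0.10 for each in a two-sided exact permutation test, the smallest that 3 against 3 libraries allow. Pqlc3 was separated on the other side, at 90.9, 70.0 and 19.2 CPM against 10.4, 0.0273 and 7.82 CPM.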
